A study of Homo sapiens with 18 samples.

Results

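The siRNA duplexes siPARP2-A and siPARP2-B, which target the same transcript, were compared directly with each other in LNCaP, a human line of prostate cancer cells that respond to androgen. Genes entered the test when they averaged 1 or more over the siRNA table, which kept 12701 of 18350, and 4 of the 18 libraries of the series, 2 per duplex, made the comparison. Cells grown in RPMI with 10% fetal bovine serum received siPARP2-A, siPARP2-B, siPARP1-A, siPARP1-B or the control siRNA siNC and were collected 72 h after transfection. Each group had 2 libraries from total RNA, which the series calls biological duplicates, and siNC served here as a reference level only. All groups are thus transfected cells of a single line. The comparison asks what differs between duplexes at a similar loss of PARP2, and in this text a positive difference means a higher level with siPARP2-A than with siPARP2-B.

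PARP2 is a nuclear enzyme that, like its larger relative PARP1, attaches ADP-ribose chains to proteins at DNA breaks. An siRNA is a short double-stranded RNA that guides the silencing machinery to a matching transcript. Besides the intended target, a duplex can pair in part with other transcripts, and long or unmodified double-stranded RNA can be sensed by RIG-I, MDA5, TLR3 and PKR, which switch on interferon-stimulated genes. Results seen with a single duplex are for this reason usually set beside those of another duplex against the same transcript.

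Values are normalised reads per M, that is, reads per M of a library size that the depositors had scaled, and recovered depth ran from 15.45 to 18.62 M reads per library. A count of 3 reads corresponded to 0.169 to 0.207 normalised reads per M, which covers counting error only. The median absolute difference between both libraries of a duplex was 0.09 on the log2 scale for siPARP2-A and likewise 0.09 for siPARP2-B. Mitochondrial transcripts took 5.50 to 5.74% of reads with siPARP2-A, 3.77 to 4.77% with siPARP2-B and 3.96 to 5.28% with siNC. Log2 differences refer to log2(value + 1), which understates changes of weakly expressed genes, and adjusted p values come from limma with Benjamini-Hochberg adjustment over all 12701 genes at a threshold of 0.05. Nothing in the sources used here says that the cultures of a group were grown apart in time, so p values rest on the spread between libraries of a group. The limma fit pooled this spread over all 5 siRNA groups and drew in part on other genes. With 2 libraries against 2, an exact permutation test cannot go below a p of 0.333.

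PARP2 was low with both duplexes. Its level was 3.06 and 2.56 with siPARP2-A, 1.78 and 1.01 with siPARP2-B, 22.1 and 20.9 with siPARP1-A, 19.8 and 18 with siPARP1-B and 29 and 25.8 with siNC. The siPARP2-A libraries lay above the siPARP2-B libraries, and both lay far below the other 6. The means were 10.3% of the siNC level with siPARP2-A and 5.11% with siPARP2-B. These values rested on 50 and 41 reads with siPARP2-A and on 30 and 18 reads with siPARP2-B. The residual transcript was thus 2.01-fold higher with siPARP2-A (log2 difference 0.68, SE 0.14, limma adjusted p = 0.000116). The size of this difference was not stable: it ran from 0.45 to 0.92 with 1 library left out. It was 0.34 with 4 instead of 1 added to the values, and 0.99 with edgeR on recovered reads.

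PARP1, the relative of the target, differed more between the duplexes than PARP2 did. PARP1 stood at 409 and 395 with siPARP2-A, 160.5 and 145 with siPARP2-B, 4.78 and 5.67 with siPARP1-A, 8.99 and 9.05 with siPARP1-B and 452 and 479 with siNC. The siPARP2-A libraries lay below but closest to the siNC level, whereas the siPARP2-B libraries lay between siNC and the siPARP1 groups. The mean was 86.3% of siNC with siPARP2-A and 32.8% of siNC with siPARP2-B, and the duplexes differed by 1.39 on the log2 scale (SE 0.07, limma adjusted p = 1.5e-14).

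**Figure D1:**
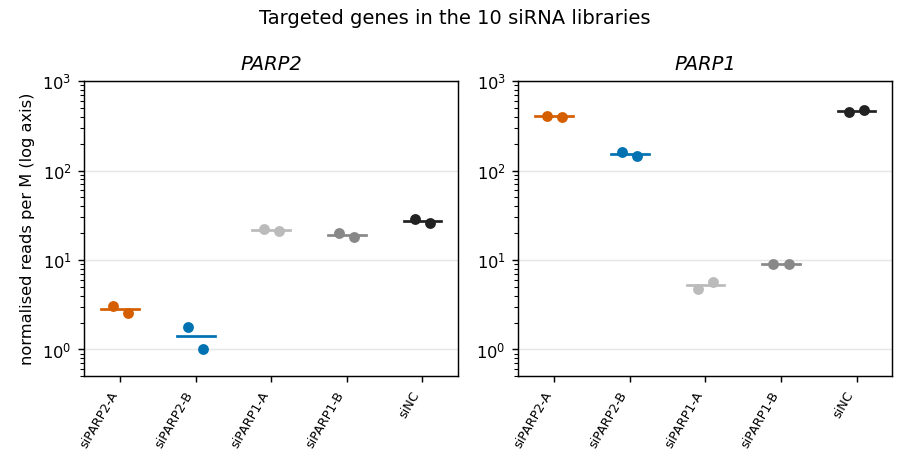
Normalised reads per M (log axis) of PARP2 and PARP1 in each of the 10 siRNA libraries, with points for libraries and a line for the group mean. PARP2 is lowest in the 4 siPARP2 libraries, and PARP1 is at 145 to 160 with siPARP2-B, between 395 to 409 with siPARP2-A and about 5 to 9 with the siPARP1 duplexes.

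The transcriptomes of the duplexes differed widely. Of 12701 genes, 8235 (64.8%) passed the test between siPARP2-A and siPARP2-B, with 4353 (34.3%) higher and 3882 (30.6%) lower with siPARP2-A. A difference of at least 2-fold was found for 830 (6.53%) higher and 746 (5.87%) lower genes. For 5196 genes (40.9%) the 95% interval of the difference lay within 0.5 log2 units of 0 on either side. Relative to siNC, 6277 genes (49.4%) were called with siPARP2-A and 8390 (66.1%) with siPARP2-B, and these comparisons share their siNC libraries. A change of at least 2-fold from siNC was called for 384 genes (3.02%) with siPARP2-A and for 1677 (13.2%) with siPARP2-B. Among the 8235 genes called between the duplexes, both siPARP2-B libraries lay outside the range of the other 8 siRNA libraries for 5172, and both siPARP2-A libraries did so for 2127. Over all 12701 tested genes these patterns covered 5766 (45.4%) with siPARP2-B and 2470 (19.4%) with siPARP2-A. A call between the duplexes itself favours genes for which a duplex lies apart. The deposited scale factors differed between the duplexes (0.908 and 0.891 with siPARP2-A, 1.04 and 1.02 with siPARP2-B), and on plain reads per M, a scaling chosen after seeing the data, 3013 genes were higher and 5473 lower with siPARP2-A. That scaling moved the median difference of all genes by -0.17.

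Genes of double-stranded RNA sensing and of the interferon response were among those with the largest differences. Of 33 tested members of this list, 32 were lower with siPARP2-A than with siPARP2-B (30.6% of all tested genes were lower) and none was higher. Their median difference was -2.52, against 0.02 over all genes. Relative to siNC, 30 members were higher with siPARP2-B (30.9% of all genes) and none was lower, with a median of 2.10, whereas 14 were lower with siPARP2-A (24.9%) and 1 was higher, with a median of -0.33. For 30 members both siPARP2-B libraries lay above the other 8 siRNA libraries (21.8% of all tested genes), and for 10 both siPARP2-A libraries lay below the other 8 (7.94%). Members that passed the filter on the mean only through siPARP2-B could only come out lower with siPARP2-A. OAS2 is such a member, with a mean of 25.8 with siPARP2-B and a level below 1 in every other library. How many such members these counts hold was not determined.

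Promoters of some members are shown because many of this list hold an interferon-stimulated response element, a site bound by interferon-activated transcription factors. The letters GAAA, any 2 bases and GAAA again were searched on both strands of the 250 bases before the RefSeq gene start (GRCh38.p14). They occurred in 13 of 24 members with a promoter entry (54.2%) and in 3.07% of all 27305 promoters. Only members with a match were eligible for printing, and those with the largest differences were taken. OASL, IFIT2 and RSAD2 differed more than IFI6 but had no match or no promoter entry. The printed windows lie at chr10:89392373-89392622, plus strand for IFIT1, at chr10:89327747-89327996, plus strand for IFIT3 and at chr1:27672193-27672442, minus strand for IFI6, each written 5′ to 3′ along its gene with matches on either strand in capitals. IFIT1 holds 2 matches, the nearer of which begins 103 bases before the start, IFIT3 holds 2 that begin 156 and 122 bases before it, and IFI6 holds 3 between 156 and 93 bases before it. A match is a description of the letters, not evidence of binding.
IFIT1: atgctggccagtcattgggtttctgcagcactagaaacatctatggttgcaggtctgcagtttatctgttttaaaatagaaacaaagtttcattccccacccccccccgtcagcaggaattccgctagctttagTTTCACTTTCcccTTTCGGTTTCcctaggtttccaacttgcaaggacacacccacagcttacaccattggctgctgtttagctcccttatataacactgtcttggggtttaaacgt
IFIT3: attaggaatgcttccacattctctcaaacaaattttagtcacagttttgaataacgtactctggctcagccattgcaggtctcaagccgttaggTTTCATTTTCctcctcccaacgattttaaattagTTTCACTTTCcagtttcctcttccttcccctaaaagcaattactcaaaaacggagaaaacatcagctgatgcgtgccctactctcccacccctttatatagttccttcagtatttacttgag
IFI6: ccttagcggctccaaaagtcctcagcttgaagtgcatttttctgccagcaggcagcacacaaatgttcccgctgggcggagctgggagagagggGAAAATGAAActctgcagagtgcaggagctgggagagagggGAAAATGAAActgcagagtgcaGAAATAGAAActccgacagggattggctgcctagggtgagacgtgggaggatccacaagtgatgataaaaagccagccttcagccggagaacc

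IFIT1, which encodes a protein that binds foreign RNA, stood at 2.45 and 2.63 with siPARP2-A, 547 and 561 with siPARP2-B, 4.84 and 5.54 with siPARP1-A, 3.46 and 2.42 with siPARP1-B and 4.09 and 4.19 with siNC. Both siPARP2-B libraries were high and the other 8 were low, a level 218-fold lower with siPARP2-A (log2 difference -7.29, SE 0.12, limma adjusted p = 9.17e-24). The related IFIT2 was at 2.45 and 3.75 with siPARP2-A, 466 and 480.1 with siPARP2-B and 5.13 and 4.54 with siNC (log2 difference -6.87), and IFIT3 at 0.673 and 1.56 with siPARP2-A, 224 and 239 with siPARP2-B and 1.49 and 1.84 with siNC (-6.81). The groups of both duplexes did not overlap for these genes, as for 81.1% of all tested genes. RSAD2, the antiviral enzyme viperin, had 1.22 and 0.938 with siPARP2-A, 223 and 223 with siPARP2-B and 0.844 and 0.804 with siNC (-6.75). OASL, an antiviral protein related to the oligoadenylate synthetases, had 3.12 and 2.44 with siPARP2-A, 445 and 484 with siPARP2-B and 3.64 and 4.42 with siNC (-6.95). The siPARP2-A and siNC levels of RSAD2 were near 1 and those of OASL between 2 and 5.

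The oligoadenylate synthetases, enzymes that respond to double-stranded RNA, followed the same order. OAS1 had 0.489 and 0.75 with siPARP2-A, 48.7 and 50.5 with siPARP2-B and 0.909 and 1.03 with siNC (log2 difference -4.97). OAS2 had no read in either siPARP2-A library, 26.1 and 25.5 normalised reads per M with siPARP2-B, from 439 and 453 reads, and 2 and 3 reads with siNC.

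The sensors also differed. DDX58, which encodes RIG-I, stood at 5.2 and 5.06 with siPARP2-A, 85.7 and 89.7 with siPARP2-B, 5.93 and 7.33 with siPARP1-A, 4.6 and 5.94 with siPARP1-B and 7.73 and 7.01 with siNC, and was lower with siPARP2-A than with siPARP2-B (log2 difference -3.85, SE 0.12, limma adjusted p = 9.79e-19). IFIH1, which encodes MDA5, was at 5.75 and 7.19 with siPARP2-A, 43.2 and 46.5 with siPARP2-B and 11 and 9.88 with siNC (log2 difference -2.62). TLR3, the endosomal receptor for double-stranded RNA, was at 1.53 and 2 with siPARP2-A, 14.3 and 15.3 with siPARP2-B and 2.27 and 1.61 with siNC (-2.52). EIF2AK2, which encodes the kinase PKR, differed less, with 14.7 and 15.3 with siPARP2-A, 26.6 and 30.3 with siPARP2-B and 22.1 and 22.1 with siNC (-0.88). MAVS, the mitochondrial adaptor that relays signals of both RIG-I and MDA5, was the 1 tested member that did not pass, with 12 and 13.9 with siPARP2-A, 9.64 and 13.8 with siPARP2-B and 14 and 11.4 with siNC (0.16, 95% interval -0.13 to 0.44).

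Among downstream genes, IFI6 was at 6.24 and 6 with siPARP2-A, 158 and 177 with siPARP2-B and 8.9 and 9.59 with siNC (log2 difference -4.56), and ISG15, a ubiquitin-like modifier, at 62.8 and 61.9 with siPARP2-A, 408 and 433 with siPARP2-B and 57.1 and 61.1 with siNC (-2.73). Relative to siNC, siPARP2-A was at 0.08 for ISG15, not past the threshold, and both siPARP2-B libraries were above the other groups shown. MX1 differed by -0.61, USP18 by -0.64 and IRF7 by -0.67, all lower with siPARP2-A. Of the 38 listed genes, 4 had a mean below 1 and 1 had no row. The low IFI44L and IFITM1 had 3.09 and 3.16, and 2.86 and 3.04 normalised reads per M with siPARP2-B, and at most 0.533 in any other library.

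**Figure D2:**
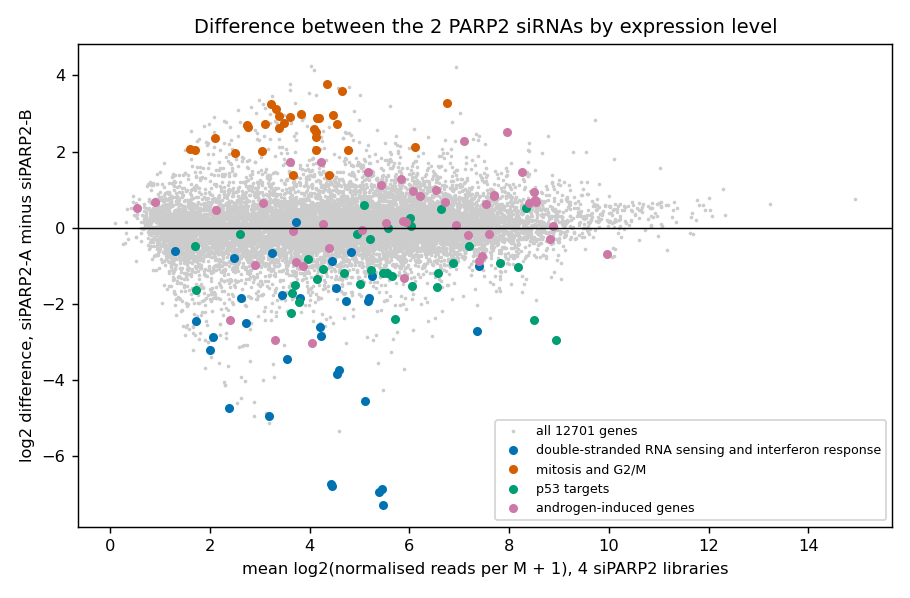
Log2 difference between siPARP2-A and siPARP2-B (vertical) against the mean log2(normalised reads per M + 1) of the 4 siPARP2 libraries for 12701 genes, with members of 4 lists coloured. Interferon-response genes reach -7.29, mitotic genes all lie above 0, most p53 targets lie below 0 and androgen-induced genes lie on both sides.

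Outside the interferon list, the genes lowest with siPARP2-A relative to siPARP2-B held several that were low in the other groups. PRSS23, a secreted serine protease, was at 2.51 and 3.06 with siPARP2-A, 144 and 161 with siPARP2-B, 5.2 and 4.2 with siPARP1-A, 3.06 and 2.49 with siPARP1-B and 5.32 and 5.28 with siNC (log2 difference -5.34, SE 0.13, limma adjusted p = 3.69e-21). ANXA1, the phospholipid-binding annexin A1, was at 0.489 and 0.5 with siPARP2-A, 34.2 and 36.3 with siPARP2-B and 2.21 and 2.12 with siNC (log2 difference -4.60). SAMD9, an antiviral factor, was at 0.55 and 0.688 with siPARP2-A, 46.2 and 46.5 with siPARP2-B and 1.88 and 2.99 with siNC (-4.87). RAET1L, which encodes a ligand of the receptor NKG2D, had 2 and 4 reads with siPARP2-A, 406 and 573 with siPARP2-B and 3 and 7 with siNC. RAET1L passed the filter on the mean only through siPARP2-B, so it could only come out lower with siPARP2-A. TM4SF18-AS1, an antisense RNA, differed by -4.96, but since the library kit does not mark strand its reads cannot be told apart from those of the opposite gene. TM4SF18-AS1 was also at 10.9 and 11.7 with siPARP1-A.

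Mitotic genes went the other way. All 30 tested members of the mitosis and G2/M list were at least 2-fold higher with siPARP2-A than with siPARP2-B (34.3% of all genes were higher, 6.53% at least 2-fold), with a median difference of 2.67. Relative to siNC the list had a median of 0.14 with siPARP2-A, where 8 members were higher (24.5% of all genes) and 5 lower (24.9%), and a median of -2.55 with siPARP2-B, where all 30 were lower (35.2% of all genes). For all 30, both siPARP2-B libraries lay below the other 8 siRNA libraries (23.6% of all tested genes). In bulk RNA, fewer cells in a phase of the cycle and less RNA per cell cannot be told apart.

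Promoters of TOP2A and CDK1 are shown because many mitotic genes hold a cell-cycle genes homology region, whose core is TTTGAA and which is bound by the DREAM and MuvB complexes. These letters were found, on either strand, in the 250 bases before the start of 14 of 25 mitotic genes with a RefSeq entry (56.0%) and of 13.6% of all promoters. TOP2A and CDK1 were taken from the members with a match. NUSAP1, whose difference lay between theirs, had no match or no entry. The windows lie at chr17:40417897-40418146, minus strand for TOP2A and at chr10:60778081-60778330, plus strand for CDK1 (GRCh38.p14), 5′ to 3′ along the gene, with matches in capitals. Matches begin 194 and 151 bases before the start in TOP2A and 161 bases before it in CDK1, and neither window holds the paired GAAA letters.
TOP2A: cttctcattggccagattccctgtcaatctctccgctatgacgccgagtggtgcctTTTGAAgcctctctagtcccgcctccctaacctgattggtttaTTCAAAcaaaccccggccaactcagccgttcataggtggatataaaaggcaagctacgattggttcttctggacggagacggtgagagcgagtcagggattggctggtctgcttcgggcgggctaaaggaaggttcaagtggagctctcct
CDK1: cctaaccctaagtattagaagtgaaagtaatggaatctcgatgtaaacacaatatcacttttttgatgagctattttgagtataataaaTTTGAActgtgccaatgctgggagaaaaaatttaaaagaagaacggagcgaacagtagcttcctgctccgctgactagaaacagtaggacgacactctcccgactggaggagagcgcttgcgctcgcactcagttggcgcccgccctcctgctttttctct

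CDK1, the kinase that drives entry into mitosis, stood at 334 and 334 with siPARP2-A, 35.6 and 31.7 with siPARP2-B, 255 and 279 with siPARP1-A, 288 and 295 with siPARP1-B and 279 and 262 with siNC. The 2 siPARP2-B libraries were the only low ones, and the level was 9.92-fold higher with siPARP2-A (log2 difference 3.28, SE 0.06, limma adjusted p = 5.48e-23). TOP2A, the topoisomerase that untangles chromosomes, was at 73.7 and 74.8 with siPARP2-A, 5 and 4 with siPARP2-B and 87.9 and 84.9 with siNC (log2 difference 3.78). CCNA2, which encodes cyclin A, was at 57.2 and 56.8 with siPARP2-A, 4.34 and 4.06 with siPARP2-B and 44.1 and 43.1 with siNC (3.48). The spindle protein gene NUSAP1 had 84 and 87.9 with siPARP2-A, 6.19 and 6.26 with siPARP2-B and 79.1 and 78.7 with siNC (3.59). PLK1 differed by 2.63, CCNB1 by 2.11 and MKI67, the marker Ki-67, by 2.03, while CENPE and AURKA had the smallest differences of the list, at 1.37 and 1.38.

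PBK, a mitotic kinase, was the gene with the largest difference in this direction, with 71.4 and 68.8 with siPARP2-A, 3.21 and 2.31 with siPARP2-B and 57.6 and 51.7 with siNC (log2 difference 4.25, SE 0.09, limma adjusted p = 5.21e-22). ANLN, the cytokinesis protein anillin, was at 74.6 and 71.3 with siPARP2-A, 5.17 and 3.61 with siPARP2-B and 67.9 and 59.9 with siNC (log2 difference 3.79), and NCAPG, a condensin subunit, at 54.6 and 51.8 with siPARP2-A, 4.64 and 2.87 with siPARP2-B and 56.4 and 50.7 with siNC (3.54). DEPDC1 differed by 3.71 and the zinc finger gene ZNF367 by 3.63. PEG3, an imprinted zinc finger gene that is not part of the cell cycle lists, came next to PBK in size. PEG3 was at 545 and 515 with siPARP2-A, 27.8 and 26.5 with siPARP2-B, 261 and 251 with siPARP1-A, 562 and 646 with siPARP1-B and 558 and 529.9 with siNC (log2 difference 4.24), with the siPARP2-B libraries lowest and the siPARP1-A libraries next.

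The genes of DNA replication and S phase followed the mitotic genes, with 34 of 37 higher with siPARP2-A, none lower and a median difference of 1.25 (34.3% of all tested genes were higher and 30.6% lower). For 17 of them both siPARP2-A libraries lay above the other 8 (11.5% of all tested genes). The list's median relative to siNC was 0.09 with siPARP2-A and -1.19 with siPARP2-B. MCM10, a replication initiation factor, was at 46.1 and 42.1 with siPARP2-A, 2.5 and 2.09 with siPARP2-B and 32.5 and 32.2 with siNC (log2 difference 3.78). CDC6, which loads the replicative helicase, was at 107 and 107 with siPARP2-A, 10.2 and 7.33 with siPARP2-B and 85.9 and 90.3 with siNC (3.48). RRM2, the small subunit of ribonucleotide reductase, was at 82.8 and 84.4 with siPARP2-A, 6.01 and 5.18 with siPARP2-B and 96.8 and 89.8 with siNC (3.68). For MCM10 and CDC6, both siPARP2-A libraries lay above and both siPARP2-B libraries below the other 8. E2F1 differed by 2.82 and the sliding clamp gene PCNA by 0.73, whereas LIG1, POLE and POLD3 did not pass, at 0.06, 0.09 and 0.14. DTL, an adaptor for the ubiquitin ligase that removes the licensing factor CDT1, had 69.2 and 71.7 with siPARP2-A, 3.27 and 2.87 with siPARP2-B and 57.5 and 50.6 with siNC (4.13).

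Repair genes that work by homologous recombination were higher with siPARP2-A in 26 of 34 cases and lower in 2 (34.3% of all tested genes were higher and 30.6% lower), with a median difference of 0.92, and 1 was lower without replicate 1 of siPARP2-A or replicate 2 of siPARP2-B. EXO1, a nuclease of end resection, was at 29.5 and 31.5 with siPARP2-A, 2.26 and 1.52 with siPARP2-B and 26.9 and 23.3 with siNC (log2 difference 3.46). BRCA1 differed by 2.54 and BRCA2 by 1.98. The kinase gene ATM was at -0.09 and MRE11A and NBN, subunits of the end-binding complex, at 0.01 and 0.07, none past the threshold, while RAD50, of the same complex, was lower with siPARP2-A (-0.28). In base excision and single-strand break repair, the pathway in which PARP2 works, 10 of 22 genes were higher and 2 lower, against 7 higher and 10 lower on plain reads per M and 6 lower with upper-quartile scaling. The median of 0.10 ran from -0.08 to 0.13 over the alternatives, so its sign was not stable. Without replicate 2 of either duplex, 1 gene of this list was lower. Uracil glycosylase UNG was at 81.3 and 87.2 with siPARP2-A, 9.58 and 8.9 with siPARP2-B and 77.7 and 81.1 with siNC (3.06).

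Targets of p53 were mostly lower with siPARP2-A than with siPARP2-B, with 26 of 34 lower (30.6% of all tested genes), 4 higher (34.3%) and a median difference of -1.16. Relative to siNC, 21 were lower (24.9% of all genes) and 6 higher (24.5%) with siPARP2-A, with a median of -0.31. With siPARP2-B, 24 were higher than siNC (30.9% of all genes) and 9 lower (35.2%), with a median of 0.85. CDKN1A, which encodes the cyclin-dependent kinase inhibitor p21, stood at 166 and 186 with siPARP2-A, 1346 and 1389 with siPARP2-B, 817 and 853 with siPARP1-A, 148 and 137 with siPARP1-B and 333 and 369.6 with siNC. The siPARP2-B libraries were the highest, the siPARP1-A libraries came next, and the siPARP2-A and siPARP1-B libraries lay below siNC. The level was 7.78-fold lower with siPARP2-A than with siPARP2-B (log2 difference -2.96, SE 0.06, limma adjusted p = 4.36e-22).

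GDF15, a secreted stress cytokine, was at 146 and 161 with siPARP2-A, 756 and 934 with siPARP2-B and 125 and 139 with siNC (log2 difference -2.44). BTG2, an antiproliferative gene, was at 21.6 and 21.9 with siPARP2-A, 124 and 117 with siPARP2-B and 81.5 and 80.2 with siNC (-2.42). BTG2 thus fell with siPARP2-A relative to siNC (-1.85) and rose with siPARP2-B (0.57). The death receptor gene FAS was at 5.26 and 6.75 with siPARP2-A, 25.8 and 26.7 with siPARP2-B, 30.5 and 31.7 with siPARP1-A, 4.93 and 4.56 with siPARP1-B and 4.87 and 4.25 with siNC (-1.97), and was highest with siPARP1-A. BAX, a pore-forming protein of the mitochondrial death pathway, was at 17.2 and 19.5 with siPARP2-A, 52.8 and 53.5 with siPARP2-B and 19.5 and 26.8 with siNC (-1.49). MDM2, the ubiquitin ligase that removes p53, did not pass (0.04, 95% interval -0.10 to 0.18), nor did PPM1D (-0.18), POLH (-0.16) and CCNG2 (-0.02). AEN (0.58), CCNG1 (0.51), TRIAP1 (0.49) and SESN1 (0.24) were higher with siPARP2-A.

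Among the other cell cycle regulators, 12 of 22 cyclin, inhibitor and pocket protein genes were higher and 4 lower with siPARP2-A, against 10 higher and 7 lower on plain reads per M (34.3% of all tested genes were higher and 30.6% lower). With the deposited scaling, the 4 lower genes were all CDK inhibitors: CDKN1A, CDKN2B (-1.77), CDKN2A (-0.76) and CDKN1B (-0.63). The other CDKN genes of the list, CDKN1C, CDKN2C, CDKN2D and CDKN3, were also tested and were not called lower. The pocket protein gene RBL1 was at 29.6 and 27.9 with siPARP2-A, 5.17 and 4 with siPARP2-B and 21.8 and 23.9 with siNC (2.42). In the BCL2 family, 9 of 15 genes were lower with siPARP2-A (30.6% of all tested genes), among them the pro-death genes BMF (-1.92), BIK (-1.84) and BBC3 (-1.64), and 4 were higher (34.3%), led by BAK1 (0.89).

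**Figure D3:**
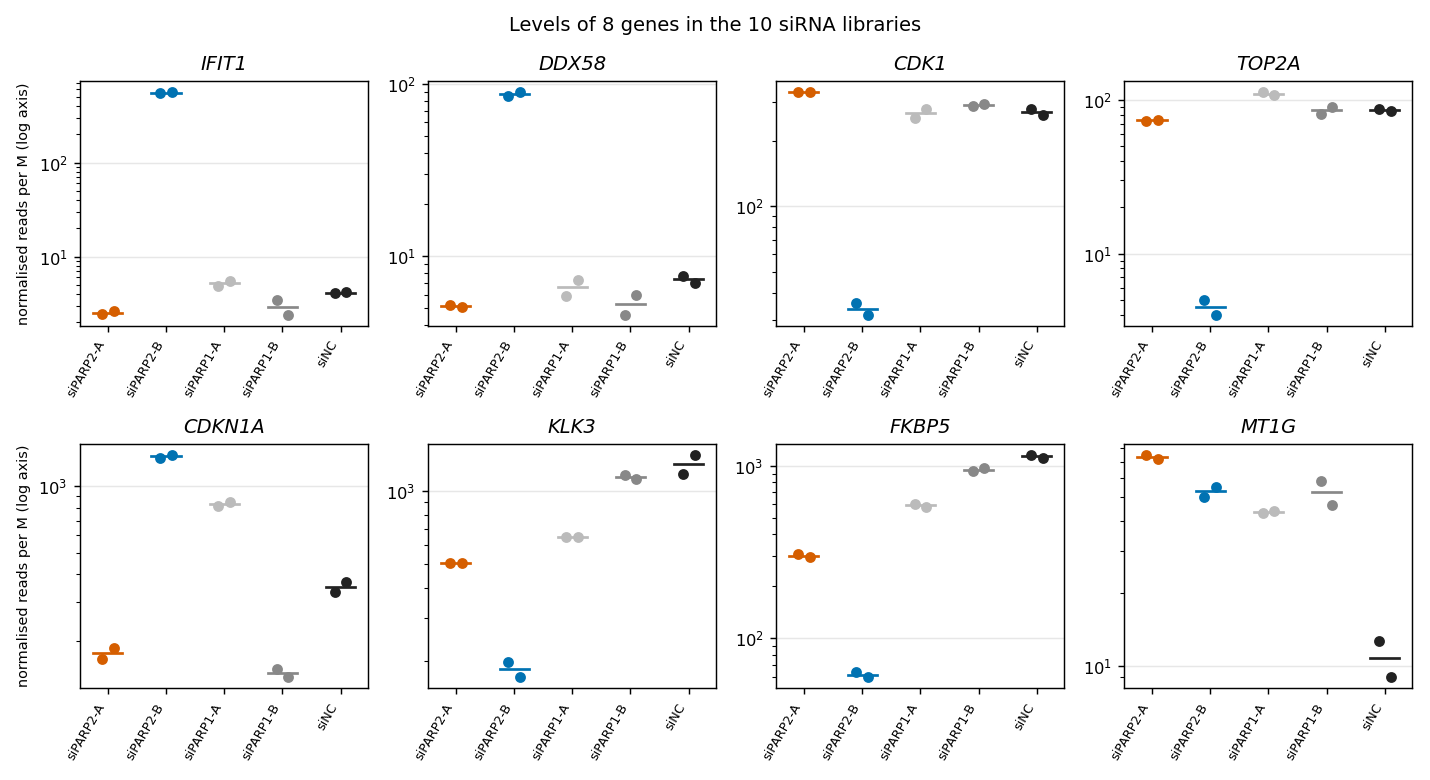
Normalised reads per M (log axes) of 8 genes in the 10 siRNA libraries, with points for libraries and a line for the group mean. IFIT1 and DDX58 are high with siPARP2-B alone, CDK1 and TOP2A are low with siPARP2-B alone, CDKN1A is highest with siPARP2-B, KLK3 and FKBP5 are lowest with siPARP2-B, and MT1G is low with siNC alone.

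Androgen-induced genes lay below siNC with both duplexes, and they split between the duplexes. Relative to siNC, 43 of 45 were lower (24.9% of all tested genes) and 1 higher (24.5%) with siPARP2-A, with a median of -1.13. With siPARP2-B, 39 were lower (35.2% of all tested genes) and 3 higher (30.9%) than the same siNC libraries, with a median of -1.49. Between the duplexes, 23 were higher (34.3% of all tested genes) and 14 lower with siPARP2-A, with a median difference of 0.47, and the share lower lay close to the 30.6% over all tested genes.

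KLK3, which encodes prostate-specific antigen, was at 504 and 503 with siPARP2-A, 198 and 171 with siPARP2-B, 646 and 649 with siPARP1-A, 1165 and 1121 with siPARP1-B and 1176 and 1414 with siNC (log2 difference 1.45, SE 0.07, limma adjusted p = 4.22e-15). FKBP5, a cochaperone of steroid receptors, had 307 and 294 with siPARP2-A, 63.7 and 59.4 with siPARP2-B, 599 and 577 with siPARP1-A, 932 and 965 with siPARP1-B and 1154 and 1109.7 with siNC (2.27). The siPARP2-B libraries were the lowest for both genes.

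Other androgen-induced genes were lower with siPARP2-A. STEAP4, a metalloreductase, was at 1.1 and 1.44 with siPARP2-A, 12.3 and 10.4 with siPARP2-B, 3.02 and 3.82 with siPARP1-A, 50.7 and 54.6 with siPARP1-B and 17.7 and 18 with siNC (log2 difference -2.44). TARP, a transcript within the T-cell receptor gamma locus that prostate cells make, was at 4.4 and 5.19 with siPARP2-A, 44.9 and 47.8 with siPARP2-B and 57.8 and 51.5 with siNC (-3.03). Of the PARP2 duplexes, only siPARP2-A differed from siNC past the threshold for TARP. TARP was also below siNC with the PARP1 duplexes, at 5.8 and 6.75 with siPARP1-A and 15.3 and 16.2 with siPARP1-B. TM4SF1, a membrane protein gene, was at 2.45 and 2.56 with siPARP2-A, 26 and 27 with siPARP2-B and 4.74 and 4.13 with siNC (-2.97). SLC45A3, or prostein, was closer between the duplexes, at 131 and 135 with siPARP2-A, 151 and 155 with siPARP2-B and 418 and 436 with siNC (-0.20), and TRPM8, a cation channel gene, did not pass, at 10.7 and 11.9 with siPARP2-A, 12.8 and 11.4 with siPARP2-B and 39.9 and 43.4 with siNC (-0.09, 95% interval -0.28 to 0.09).

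Of 17 genes that androgen represses, 11 were higher and 3 lower with siPARP2-A (34.3% of all tested genes were higher and 30.6% lower), with a median difference of 0.47. PEG3 led them, followed by SI, the sucrase-isomaltase gene, at 18.4 and 18.3 with siPARP2-A, 2.8 and 2.54 with siPARP2-B and 5.58 and 5.57 with siNC (2.40), and DDC, the decarboxylase of dopamine synthesis, at 235 and 236 with siPARP2-A, 82.9 and 77.4 with siPARP2-B and 356 and 332 with siNC (1.54). SI was at 17.4 and 16.6 with siPARP1-A and 20.7 and 21.7 with siPARP1-B, also above siNC. DDC was at 88.4 and 88.7 with siPARP1-A and 308 and 301 with siPARP1-B. The UGT2B genes of this list are near-identical copies whose reads may have been split, and UGT2B17 (1.39) and UGT2B7 (-0.46) lay on opposite sides. MYC was at 88.1 and 93 with siPARP2-A, 56.4 and 55.5 with siPARP2-B and 53 and 52.9 with siNC (0.68), above siNC with siPARP2-A and not past the threshold with siPARP2-B (0.08).

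**Figure D4:**
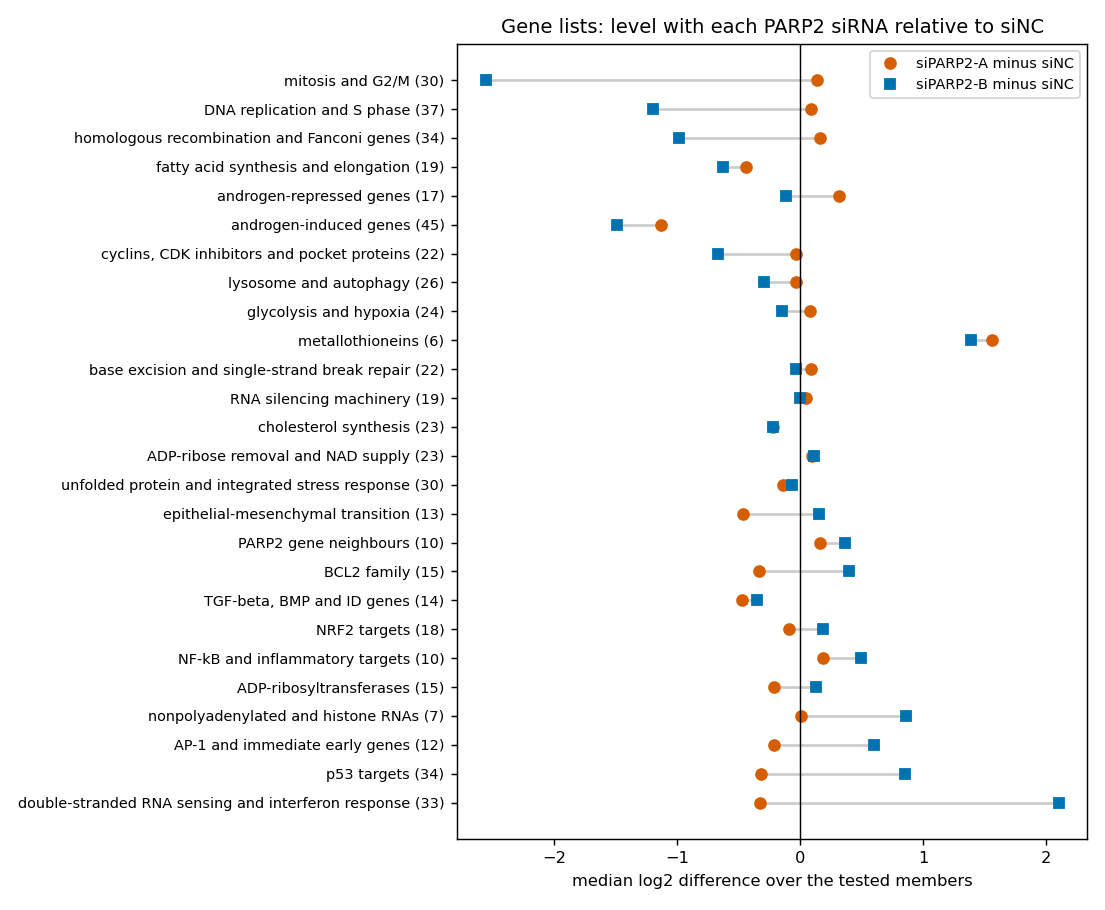
Median log2 difference from siNC over the tested members of 26 gene lists (number of genes in brackets), as circles for siPARP2-A and squares for siPARP2-B, joined by a line. The marks lie farthest apart for mitosis (0.14 and -2.55) and the interferon response (-0.33 and 2.10), and close together for metallothioneins (1.56 and 1.39).

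Some genes stood far from siNC with both duplexes. NCAPD3, a subunit of condensin II, was at 102 and 98.9 with siPARP2-A, 136 and 115 with siPARP2-B, 113 and 100.02 with siPARP1-A, 762 and 812 with siPARP1-B and 615 and 634 with siNC. It was low with both PARP2 duplexes and siPARP1-A and high with siPARP1-B and siNC, and the PARP2 duplexes differed by -0.31 (95% interval -0.46 to -0.17). With 1 library left out, that difference ran from -0.43 to -0.19. SLC41A1, a magnesium transporter, had 38.4 and 39.6 with siPARP2-A, 35.3 and 36.4 with siPARP2-B and 176 and 172 with siNC, with no difference past the threshold between duplexes (0.12, 95% interval -0.02 to 0.26). DEFB132, a defensin gene, was at 30.5 and 33.6 with siPARP2-A, 19.2 and 18.8 with siPARP2-B and 135 and 145 with siNC (0.72), and KLK2, a kallikrein close to KLK3, at 90.1 and 85.6 with siPARP2-A, 39.1 and 31.9 with siPARP2-B and 418 and 452 with siNC (1.29). For DEFB132 and KLK2 the siPARP2-B libraries were the lower. With siPARP1-A, SLC41A1 was at 46.5 and 42.9, DEFB132 at 71.1 and 76.6 and KLK2 at 174 and 170, all below siNC. With siPARP1-B, SLC41A1 was at 209 and 232, DEFB132 at 137 and 139 and KLK2 at 459 and 448.

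On the other side of siNC, RAB9A, a GTPase of late endosomes, was at 46 and 49.6 with siPARP2-A, 57.3 and 57.5 with siPARP2-B, 53.9 and 54.3 with siPARP1-A, 54.6 and 55.6 with siPARP1-B and 12.2 and 13.2 with siNC. All 8 libraries with a PARP siRNA lay above both siNC libraries, and the PARP2 duplexes differed by -0.26 (limma adjusted p = 0.00359), a call that was lost without replicate 1 of siPARP2-A (adjusted p = 0.0605). SLC35D2, a nucleotide sugar transporter, had 33.9 and 38.1 with siPARP2-A, 35.4 and 37.3 with siPARP2-B and 10.1 and 10.1 with siNC (-0.01, 95% interval -0.19 to 0.16). It was above siNC with the PARP1 duplexes too, at 47.8 and 50.5 with siPARP1-A and 29 and 32.3 with siPARP1-B.

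Metallothioneins, small proteins that bind zinc and copper, were higher than siNC with siPARP2-A in 6 of 6 tested genes (24.5% of all tested genes were higher) and with siPARP2-B in 5 of 6 (30.9%), and 5 more listed genes had no row; the list includes the metal-responsive factor gene MTF1 and the zinc exporter gene SLC30A1. MT1G was at 75 and 72.2 with siPARP2-A, 50.4 and 55.5 with siPARP2-B, 43 and 43.8 with siPARP1-A, 58.4 and 46.5 with siPARP1-B and 12.7 and 8.96 with siNC, with a difference between duplexes of 0.47 (adjusted p = 0.000586 by limma). Here too the siNC libraries were the lowest of the 10. MT1F was at 18.7 and 19.8 with siPARP2-A, 11.1 and 12.9 with siPARP2-B and 5 and 4.42 with siNC (0.64) and MT1X at 11.6 and 11.8 with siPARP2-A, 12.7 and 13.8 with siPARP2-B and 3.96 and 3.5 with siNC (-0.17, not past the threshold). MT2A varied widely between libraries of a group, with 78.5 and 101 with siPARP2-A, 90.7 and 158 with siPARP2-B and 39 and 18.1 with siNC (-0.43, 95% interval -0.87 to 0.02), and it passed without replicate 1 of siPARP2-B (-0.82, adjusted p = 0.00102). Metallothionein genes are close copies of each other, so the split of reads among them is uncertain.

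Other genes passed against siNC in opposite directions. AGR2, a disulphide isomerase of the secretory pathway, was at 15.4 and 14.5 with siPARP2-A, 154 and 151 with siPARP2-B, 8.16 and 9.43 with siPARP1-A, 18.6 and 16 with siPARP1-B and 55.3 and 58.7 with siNC. Its difference from siNC was -1.86 with siPARP2-A and 1.40 with siPARP2-B, and the duplexes differed by -3.27 (SE 0.09, limma adjusted p = 3.95e-20). RAB27B, a GTPase of secretory vesicles, was at 7.77 and 8.82 with siPARP2-A, 72 and 78.7 with siPARP2-B and 20.6 and 18.5 with siNC, or -1.15 with siPARP2-A and 1.89 with siPARP2-B. For RAB27B the siPARP2-A libraries were the lowest and the siPARP2-B libraries the highest of the 10.

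APOL3, a gene of the apolipoprotein L family, was at 0.979 and 1.06 with siPARP2-A, 15.9 and 17.9 with siPARP2-B and 4.16 and 5.74 with siNC (log2 difference between duplexes -3.15). TRANK1 was at 0.367 and 0.563 with siPARP2-A, 18.1 and 16.6 with siPARP2-B and 2.34 and 2.93 with siNC (-3.65). CD24P4, a pseudogene nearly identical to CD24, showed -3.09, and its reads cannot be told apart from those of CD24.

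Among the ADP-ribosyltransferases, the enzyme family of the target, 5 of 15 were higher and 8 lower with siPARP2-A (34.3% of all tested genes were higher and 30.6% lower), with a median difference of -0.49. The 5 higher genes include the target PARP2 itself and PARP1, whose levels are given above. PARP14 was at 0.612 and 0.625 with siPARP2-A, 5.35 and 5.35 with siPARP2-B and 4.09 and 3.33 with siNC (log2 difference -1.97), PARP12 at 14.3 and 16.3 with siPARP2-A, 34.4 and 38.5 with siPARP2-B and 13.5 and 15 with siNC (-1.20) and PARP9 at 31.7 and 32 with siPARP2-A, 65.8 and 61.3 with siPARP2-B and 58.7 and 54.3 with siNC (-0.97). PARP9, PARP12 and PARP14 are also known as interferon-stimulated genes. PARP8 was at 10.7 and 12.4 with siPARP2-A, 24.7 and 24.8 with siPARP2-B and 7.4 and 6.6 with siNC (-1.04), and the tankyrase genes TNKS and TNKS2 went in opposite directions (-0.63 and 0.83). Of 23 genes of ADP-ribose removal and NAD supply, 7 were higher and 6 lower, shares near those over all tested genes, against 4 higher and 10 lower on plain reads per M, led by the deacetylase gene SIRT1 at 49.9 and 48.9 with siPARP2-A, 15 and 13.6 with siPARP2-B and 61.4 and 55.5 with siNC (1.72).

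The RNA silencing machinery that loads the siRNA showed 7 of 19 genes higher and 8 lower with siPARP2-A and a median of -0.03, which ran from -0.21 to 0.08 over the alternatives (34.3% of all tested genes were higher and 30.6% lower). AGO2, the slicing Argonaute, was lower with siPARP2-A (-0.67) and AGO4 higher (0.67). HSP90AA1, the heat shock protein that helps load Argonaute, was at 3651 and 3515 with siPARP2-A, 1239 and 1192 with siPARP2-B, 1771 and 1834 with siPARP1-A, 2932 and 2809.8 with siPARP1-B and 2832 and 2489 with siNC (1.56). ADAR, which edits double-stranded RNA and is itself interferon-stimulated, was at 218 and 218 with siPARP2-A, 366 and 372 with siPARP2-B and 296 and 307 with siNC (-0.76). Of 10 tested genes that neighbour PARP2, 1 was higher (2 without replicate 1 of siPARP2-B) and 5 lower (3 with a mean of at least 5): CCNB1IP1 was at 45.5 and 45.5 with siPARP2-A, 14.6 and 12.7 with siPARP2-B and 40.7 and 39 with siNC (1.67), TEP1 at 1.83 and 2.19 with siPARP2-A, 7.67 and 6.2 with siPARP2-B and 3.9 and 3.27 with siNC (-1.39) and the ribonuclease gene ANG at 1.22 and 1.31 with siPARP2-A, 7.08 and 7.16 with siPARP2-B and 2.92 and 2.18 with siNC (-1.84), while APEX1, TTC5, SUPT16H and PNP did not pass.

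Immediate early genes of the AP-1 list were lower with siPARP2-A in 11 of 12 cases and higher in 1 (34.3% of all tested genes were higher and 30.6% lower), with a median of -1.11. KLF4 was at 6.79 and 6.88 with siPARP2-A, 32.7 and 37.8 with siPARP2-B and 12.3 and 14.6 with siNC (-2.21), IER5 at 5.32 and 5.57 with siPARP2-A, 18.6 and 22.3 with siPARP2-B and 4.8 and 5.28 with siNC (-1.73) and DUSP1, a phosphatase of MAP kinases, at 23.1 and 29.1 with siPARP2-A, 65.4 and 65.9 with siPARP2-B and 54.1 and 53.9 with siNC (-1.31). In the NF-kB list 5 of 10 were lower, or 2 with a mean of at least 5, and 2 were higher, or 1 on plain reads per M, and the median of -0.39 ran from -0.54 to 0.21 over the alternatives. CXCL10, a chemokine that interferon also induces, had 2 and 6 reads with siPARP2-A, 198 and 227 with siPARP2-B and 2 and 3 with siNC. This gene passed the filter on the mean only through siPARP2-B, so it could only come out lower with siPARP2-A. BIRC3, an inhibitor of apoptosis, was at 8.32 and 5.44 with siPARP2-A, 43.8 and 43.2 with siPARP2-B and 3.12 and 2.24 with siNC (-2.52), and TNFAIP3 at 1.83 and 1.63 with siPARP2-A, 6.54 and 7.04 with siPARP2-B and 4.42 and 4.94 with siNC (-1.51). Of 14 TGF-beta, BMP and ID genes, 7 were lower (30.6% of all tested genes) and 3 higher (34.3%), led by the decoy receptor gene BAMBI at 33.8 and 38.6 with siPARP2-A, 139 and 161 with siPARP2-B and 31.6 and 32.6 with siNC (-2.02).

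The stress and metabolic lists held genes on both sides. Of 30 genes of the unfolded protein and integrated stress responses, 14 were higher and 14 lower with siPARP2-A, against 7 higher and 15 lower on plain reads per M (34.3% of all tested genes were higher and 30.6% lower). The higher ones included MTHFD2 of mitochondrial folate metabolism, at 210.4 and 202 with siPARP2-A, 73.1 and 69.8 with siPARP2-B and 147 and 137 with siNC (1.51), and the chaperone gene HSP90B1 (1.14), and the lower ones DNAJB9, a chaperone of the endoplasmic reticulum, at 35.4 and 32.8 with siPARP2-A, 98.6 and 97.2 with siPARP2-B and 136 and 120.4 with siNC (-1.50), SLC3A2 (-1.35) and DDIT3 (-1.13). In fatty acid synthesis and elongation, 11 of 19 were higher and 2 lower, or 5 lower on plain reads per M (median 0.48), with the elongase gene ELOVL1 at 259 and 279 with siPARP2-A, 108 and 115 with siPARP2-B and 278 and 278 with siNC (1.26). Cholesterol synthesis had 8 of 23 higher and 8 lower, shares near those over all tested genes, against 5 higher and 13 lower on plain reads per M, among them DHCR7 (1.12) and INSIG1 (-0.89).

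Glycolysis and hypoxia genes were higher in 13 of 24 cases and lower in 5 (median 0.21), against 7 higher and 9 lower on plain reads per M and 8 lower with edgeR or upper-quartile scaling (34.3% of all tested genes were higher and 30.6% lower). EGLN3, an oxygen sensor, was at 23.5 and 21.9 with siPARP2-A, 86.2 and 90.0 with siPARP2-B, 13.3 and 12.8 with siPARP1-A, 11.4 and 10.5 with siPARP1-B and 13.4 and 13 with siNC (-1.91). NRF2 targets were lower in 9 of 18 cases and higher in 5, or in 3 without replicate 1 of siPARP2-A or on plain reads per M, with HMOX1, haem oxygenase, at 9.48 and 11.5 with siPARP2-A, 28.7 and 35.4 with siPARP2-B, 34 and 34.2 with siPARP1-A, 5.39 and 7.81 with siPARP1-B and 7.21 and 6.78 with siNC (-1.52). Of 26 lysosome and autophagy genes, 13 were higher, led by LAMP1 at 119 and 135 with siPARP2-A, 36.9 and 37.3 with siPARP2-B and 139 and 131 with siNC (1.74), and 8 lower, led by the autophagy receptor gene SQSTM1 at 308 and 328 with siPARP2-A, 717 and 727 with siPARP2-B and 332 and 362 with siNC (-1.18). For LAMP1, SQSTM1, EGLN3 and HMOX1 the siPARP2-B libraries lay farther from siNC than the siPARP2-A libraries.

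Of 13 tested genes of the epithelial-mesenchymal transition, 6 were lower with siPARP2-A (30.6% of all tested genes) and 4 higher (34.3%). VIM, which encodes vimentin, was at 2.51 and 3.19 with siPARP2-A, 31.4 and 32.2 with siPARP2-B, 2.24 and 2.29 with siPARP1-A, 6.73 and 6.84 with siPARP1-B and 7.47 and 6.2 with siNC (-3.10), ITGA2 at 3.85 and 2.88 with siPARP2-A, 18.2 and 19.6 with siPARP2-B and 5.45 and 4.54 with siNC (-2.20) and the tight junction gene CLDN4 at 150.4 and 164 with siPARP2-A, 413 and 468 with siPARP2-B and 229 and 262 with siNC (-1.48). The list of nonpolyadenylated and histone RNAs held 20 genes, of which 12 had no row and 1 had a mean below 1. Its 7 tested members, histone genes only, were all lower with siPARP2-A (30.6% of all tested genes were lower), with a median of -0.74. HIST1H2BD was at 24.4 and 20.7 with siPARP2-A, 74.9 and 74.8 with siPARP2-B and 24.1 and 28.4 with siNC (-1.69). Copies of histone genes are alike, so the split of reads among them is uncertain.

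The luminal prostate markers of LNCaP were present in every library. The 13 markers summed to 4000.1 to 4059 normalised reads per M with siPARP2-A, 3055 to 3075 with siPARP2-B and 7541 to 7881 with siNC, and 7 were higher (34.3% of all tested genes) and 6 lower (30.6%) with siPARP2-A. Prostatic acid phosphatase, ACPP, was lower with siPARP2-A, at 22.9 and 24.7 with siPARP2-A, 68.8 and 62.5 with siPARP2-B and 104 and 99.2 with siNC (-1.43), and HOXB13 was higher (0.92). Tested markers of other cell types were few: the 4 stromal genes summed to 3.50 to 4.28 with siPARP2-A, 11.2 to 12.1 with siPARP2-B, 9.73 to 10.1 with siPARP1-A, 2.69 to 4.13 with siPARP1-B and 4.61 to 5.40 with siNC. VWF was the 1 tested of 10 immune and endothelial markers, at 1.59 and 2 with siPARP2-A, 8.51 and 8.23 with siPARP2-B and 1.56 and 2.24 with siNC, and DST the 1 tested of 8 basal markers. The neuroendocrine genes SYP and ENO2 summed to 15.2 to 15.4 with siPARP2-A, 16.1 to 18.8 with siPARP2-B and 12.9 to 15.1 with siNC. The part of these genes in the other differences was not tested.

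At the mean of 1 that selected the genes, ZNF648 and LOC101929054 lay just inside at 1.000855 and 1.001693, and GYG2P1 and SLC25A27 just outside at 0.999597 and 0.998795.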

How the data were processed

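Total RNA of LNCaP cells was extracted with the RNeasy kit and sequenced after NEBNext Ultra preparation, a kit that does not mark strand, per the labels' protocols. Per the submitters' processing notes, the build was hg19, and HTSeq 0.6.1, TopHat2 2.1.0, edgeR 3.12.0 and bcl2fastq 2.18 were used, in roles that the notes do not give. The deposited values are a normalised signal: whole read numbers had been divided by a scaled library size, as the authors' values themselves show, since 100% lay within 0.01 of a whole read once divided by the library's step. Column sums ran from 0.965 to 1.12 M, so the table is no plain CPM. Whether counting used strand is not given in the sources used here.

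The design had allowed for read counts with edgeR. Since the deposited table holds normalised values, limma 3.58.1 (trend, R 4.3.3) was run on log2(value + 1), two-sided, with all 10 siRNA libraries as 5 groups in 1 fit (5 residual and 19.0 prior degrees of freedom). Genes needed a mean of at least 1. Alternatives were edgeR 4.0.16 and DESeq2 1.42.0 on recovered reads, pseudocounts of 0.25 and 4, other filters and scalings, the compared groups alone, replicate blocks and leaving out each library. The same fit was also run on simulated counts with known changes, and its outcome is not reported here.

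Named genes were the 12 with the largest difference in each direction with a mean log2 level of at least 2, 6 with opposite and 4 and 4 with shared changes relative to siNC, up to 3 per list, and PARP2, PARP1, KLK3, CDKN1A and MYC, and some genes that this rule names are not reported here; other list members are named as examples chosen after their values were seen. The comparison, the 26 gene lists and the 5 marker lists were chosen with earlier results of these data known. A planned sorting of genes by their calls relative to siNC is left out, since both comparisons share the siNC libraries. Symbols came from the table for 14833 genes and from reference tables for 2814 and 53 more, and 650 had none. Promoters came from RefSeq (GRCh38.p14).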

Additional observations from a re-analysis of the deposited data

How the results depend on the processing

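With the 4353 higher and 3882 lower genes as the starting point, counts over all tested genes between the duplexes moved by less than 1.5 times under the 18 alternatives, except for genes at least 2-fold lower with siPARP2-A (746), which numbered 459 with a pseudocount of 4 and 491 with a mean of at least 5. Genes at least 2-fold changed with siPARP2-A relative to siNC (384) numbered 630 with edgeR's quasi-likelihood test on recovered reads and 221 with a pseudocount of 4. A larger pseudocount shrinks low genes and a higher mean tests fewer genes by construction, while the cause of the edgeR count was not tested. edgeR called 8302 genes between the duplexes (4164 higher, 4138 lower) and DESeq2 7303. Leaving out 1 library at a time gave 7323 to 8307 called genes, 3880 to 4388 higher and 3422 to 3919 lower.

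Replicate numbers are shared by the groups, but nothing says that they mark a shared culture or day, and deviations of equal-numbered siPARP2-A and siPARP2-B libraries correlated with r = 0.115 over 12701 genes from 2 pairs. With a replicate block, 4319 genes were higher and 3864 lower, 8183 in all, and no count moved by over 1.5 times. Equal-numbered siPARP2-B and siNC libraries correlated at -0.111, and with the siNC numbers crossed, a choice made after seeing the data, the block called 8484 genes for siPARP2-B relative to siNC, against 8390 without it.

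Of 126 genes checked under the 18 alternatives, 7 changed their call or direction in 17 cases. CYTB reversed, at -0.35 (adjusted p = 0.0246) against 0.04 with all libraries, without replicate 1 of siPARP2-B, and passed at 0.42 without replicate 2 of siPARP2-B. The list medians kept their sign under every alternative for the interferon (-2.82 to -1.74), mitosis (2.07 to 3.08), replication (1.08 to 1.44), p53 (-1.34 to -1.03) and androgen-induced (0.16 to 0.57) lists. Depth limits genes near 3 reads, and 2 libraries per group limit every spread.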

Other observations

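Mitochondrial transcripts did not move together between the duplexes. The ribosomal RNA MT-RNR1 was at 6716 and 7383 with siPARP2-A, 3098 and 3944 with siPARP2-B and 6109 and 4011 with siNC normalised reads per M (log2 difference 1.01, limma adjusted p = 1.02e-07), and MT-RNR2 at 42962 and 38495 with siPARP2-A, 22766 and 26063 with siPARP2-B and 35280.0 and 27552 with siNC (0.74). Of 13 mitochondrial protein-coding genes, 3 were higher with siPARP2-A (34.3% of all tested genes were higher) and none was lower at the threshold, with a median of 0.18. The 3 were ND6 (0.85), ND5 (0.72) and ND2 (0.43), all subunits of respiratory complex I. ND2 did not pass with DESeq2 (0.39, adjusted p = 0.0749) and was at 0.28 without replicate 1 of siPARP2-B (limma adjusted p = 0.0356). ND4, of the same complex, did not pass (-0.25, limma adjusted p = 0.105), but it was lower with siPARP2-A in 5 of the alternatives, from -0.25 (limma adjusted p = 0.0251, a replicate block with crossed siNC numbers) to -0.57 (limma adjusted p = 0.000116, without replicate 1 of siPARP2-B), edgeR among them (-0.31, adjusted p = 0.0417), and at 0.06 without replicate 2 of siPARP2-B. CYTB, of complex III, had 1294 and 1131 with siPARP2-A, 906 and 1538 with siPARP2-B and 1277 and 816 with siNC (0.04, 95% interval -0.29 to 0.36), and COX1, of complex IV, had 2811 and 3200.0 with siPARP2-A, 2544 and 4345 with siPARP2-B and 3955 and 2505 with siNC (-0.15). The siPARP2-B libraries spread more than the siPARP2-A libraries for COX1 and CYTB. Without replicate 1 of siPARP2-B, COX1 was lower with siPARP2-A at -0.53 (limma adjusted p = 0.00177) and CYTB at -0.35 (limma adjusted p = 0.0246), and without replicate 2 of siPARP2-B CYTB was higher with siPARP2-A at 0.42 (limma adjusted p = 0.00715). These genes were chosen after their values were seen.

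Further genes, also chosen after their values were seen, were high in the siPARP2-B libraries. CXCL11, a chemokine, was at 0.0612 and 0.313 with siPARP2-A, 19.2 and 20.5 with siPARP2-B and 0.195 and 0.459 with siNC, and TNFSF10, the death ligand TRAIL, at 0.306 and 0.125 with siPARP2-A, 7.26 and 7.27 with siPARP2-B and 0.779 and 0.287 with siNC. CXCL11 and TNFSF10 passed the filter on the mean only through siPARP2-B, so they could only come out lower with siPARP2-A. ISG20, an exonuclease of single-stranded RNA, was at 11.9 and 12.3 with siPARP2-A, 61.3 and 67.8 with siPARP2-B and 16.2 and 16.1 with siNC (log2 difference -2.32). MAN1A1, a Golgi mannosidase, was at 10.2 and 11.9 with siPARP2-A, 139 and 145 with siPARP2-B, 1.93 and 1.59 with siPARP1-A, 3.6 and 3.25 with siPARP1-B and 3.25 and 3.39 with siNC (-3.57), above siNC with both duplexes. TNFRSF12A, the receptor for TWEAK, was at 27.5 and 29.3 with siPARP2-A, 54.8 and 61.4 with siPARP2-B, 7.98 and 8.41 with siPARP1-A, 6.86 and 6.36 with siPARP1-B and 9.16 and 10.8 with siNC (-1.01).

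By gene type, 67.5% of 11358 protein-coding genes were called between the duplexes, against 42.9% of 275 lincRNAs and 36.9% of 358 antisense genes. Among 130 processed pseudogenes 35 were higher and 7 lower with siPARP2-A, with a median of 0.18, against 0.02 over all tested genes. Both shares lay below those over all tested genes, of which 34.3% were higher and 30.6% lower. In either direction 32.3% of these pseudogenes were called, against 64.8% of all tested genes. CD24P4 is of this type, and its reads cannot be told apart from those of CD24.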
